A study of Mus musculus with 10 samples.

Results

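The immediate early and AP-1 stress genes followed here are Fos, Fosb, Fosl1, Jun, Junb, Egr1, Atf3, Ier2, Dusp1 and Zfp36. They were listed by name, as a check of stress from cell isolation against treatment. They are 10 of the 17983 genes listed in any of the deposited files and 10 of the 15958 genes tested. All 10 were listed in every file and passed the filter on low values. Immediate early genes are transcribed within minutes of a stimulus without new protein synthesis, because the factors that switch them on, such as SRF with its partners and CREB, are already on their promoters and are activated by MAP kinases. Fos and Jun proteins pair as leucine zipper dimers to form AP-1, a transcription factor that in epidermis responds to injury, growth factors and ultraviolet light and acts on genes of differentiation and inflammation. The same genes are known to be induced when a tissue is cut, warmed and digested into single cells.

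RNA-seq was made from keratinocytes of mouse back skin epidermis in 10 libraries. The 4 groups were knockout mice rubbed with olive oil/acetone (3 libraries), knockout mice rubbed with water (2 libraries), control mice rubbed with olive oil/acetone (3 libraries) and control mice rubbed with water (2 libraries). Knockout mice are labelled Gsdma1KO/KO;Gsdma3fx/fx;K14-Cre, which combines a constitutive deletion of Gsdma1 with a Cre recombinase driven by the keratin 14 promoter of basal epidermal and follicle keratinocytes that removes Gsdma3. Control mice are labelled wild type, so whether they carried the Cre or floxed alleles is not stated. Gasdermins are proteins that form membrane pores once cleaved. The mixture was 4 parts acetone to 1 part olive oil, which strips barrier lipids, and all skin was rubbed 2 times a day for 3 days and collected at day 5. In every group the epidermis was lifted with dispase at 2.5 U/mL for 3 hours at 37 °C and the cells were freed with 0.25% trypsin-EDTA for 10 minutes at 37 °C. No library was made from undigested skin, so a level that all 10 libraries share from the digestion and one already present in the skin cannot be told apart. Age is not given, and the labels do not tie the libraries to separate mice, so the p-values measure only the spread between these libraries.

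Library depth was 15914663 to 21812292 reads assigned to genes. The 12 keratinocyte markers, among them Krt5 and Krt14, summed to 23041 to 27624 RPKM (reads scaled for exon length and library depth) in knockout olive oil/acetone libraries and to 20468 to 20563 in knockout water libraries, with none at 0. In controls they summed to 23179 to 29186 with olive oil/acetone and to 19897 to 20007 with water, so all 6 olive oil/acetone libraries lay above all 4 water libraries. Gsdma3 had a normalised read count of 0 to 2.62 in the 5 knockout libraries and of 61.8 to 280.1 in the 5 control libraries. Gsdma, the gene that the labels call Gsdma1, had 168.5 to 835 in knockout libraries and 198 to 724 in control libraries, with the highest value in knockout olive oil/acetone replicate 2. These values do not show the deletion of Gsdma1 that the knockout label names, and which of its exons the allele removes is not given in the sources used here. The Y-linked gene Ddx3y had 1417 to 2315 in the 6 olive oil/acetone libraries and 0 in the 4 water libraries. Limma called it and the Y-linked genes Eif2s3y, Uty and Kdm5d as higher with the mixture in both genotypes. The labels give no sex. Treatment and the presence of Y-linked transcripts, which mark male mice, cannot be told apart in any comparison of the mixture with water.

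Promoter sequences were matched by symbol for 7 of the 10 genes in RefSeq (GRCm38.p6). The 4 windows below are shown because they carry some of the elements through which this gene class is known to be switched on. Each starts 250 bases before the annotated start, reads 5′ to 3′ on the gene's own strand, and stops short of any exon annotated inside it. The Fos window lies at chr12:85473640-85473889 on the plus strand, and the Fosb, Jun and Dusp1 windows lie on the minus strand at chr7:19310052-19310295, chr4:95052223-95052472 and chr17:26508520-26508722. Capitals mark TGACG, the core of the cAMP response element bound by CREB and ATF proteins, and TGACATCA, the site in the Jun promoter known to bind dimers of Jun and ATF proteins. They also mark GCGNGGGCG, the site known for the zinc finger protein Egr1.
Fos: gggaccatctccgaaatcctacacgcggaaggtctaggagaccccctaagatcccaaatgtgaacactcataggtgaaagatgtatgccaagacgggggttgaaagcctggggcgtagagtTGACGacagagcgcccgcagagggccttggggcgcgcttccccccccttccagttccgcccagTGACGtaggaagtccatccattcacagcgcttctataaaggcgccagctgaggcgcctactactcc
Fosb: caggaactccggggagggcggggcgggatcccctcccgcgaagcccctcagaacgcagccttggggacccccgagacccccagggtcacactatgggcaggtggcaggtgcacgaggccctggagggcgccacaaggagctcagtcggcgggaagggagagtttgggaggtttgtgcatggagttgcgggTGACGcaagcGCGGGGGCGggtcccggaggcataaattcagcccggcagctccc
Jun: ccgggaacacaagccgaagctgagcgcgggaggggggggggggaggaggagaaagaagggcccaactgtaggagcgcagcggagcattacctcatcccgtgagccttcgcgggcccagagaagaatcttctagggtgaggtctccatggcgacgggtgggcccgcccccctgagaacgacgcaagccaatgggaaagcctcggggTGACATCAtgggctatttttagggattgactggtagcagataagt
Dusp1: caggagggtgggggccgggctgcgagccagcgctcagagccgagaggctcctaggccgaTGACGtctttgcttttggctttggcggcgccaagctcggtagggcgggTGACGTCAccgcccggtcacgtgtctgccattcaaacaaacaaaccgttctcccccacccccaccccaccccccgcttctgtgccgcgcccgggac

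Read on both strands over 250 bases, TGACG stood in the windows of 5 of the 7 genes, Fos, Fosb, Junb, Atf3 and Dusp1, and in 17.8% of the 32851 windows of the whole table. The full palindrome TGACGTCA, which holds an overlapping TGACG on each strand, stood in the Dusp1 window and in 1.55% of all windows. TGACATCA stood in the Jun window alone of the 7 and in 2.93% of all windows. GCGNGGGCG stood in the Fosb and Zfp36 windows and in 4.70% of all windows. A CArG box, the site of SRF, was found in the Zfp36 window and in 1.47% of all windows. It was in none of the windows printed above, and bases further upstream, where such a site may lie, were not searched. The AP-1 site TGANTCA was found in none of the 7 windows and in 6.75% of all windows. These matches describe letters in the windows and not occupied sites.

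All of the 10 genes but Fosl1 were highly expressed in every library, whatever the treatment or genotype. Together the 10 took 0.810%, 0.850% and 0.701% of reads in the knockout olive oil/acetone libraries and 0.954% and 1.01% in the knockout water libraries. They took 0.813%, 0.927% and 1.25% in the control olive oil/acetone libraries and 0.991% and 1.08% in the control water libraries. As group means that is 0.787% ± 0.0770 (SD, n = 3), 0.980% ± 0.0367 (n = 2), 0.996% ± 0.226 (n = 3) and 1.04% ± 0.0653 (n = 2), in the same order. The lowest and the highest library shares were thus both from olive oil/acetone skin.

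Junb was the highest of the 10 genes on this scale, at 491 to 839 RPKM over the 10 libraries, which ranked it between 37 and 87 among the 15958 genes tested. Jun followed at 359 to 609 RPKM, Fos at 337 to 748, Atf3 at 231 to 622 and Dusp1 at 255 to 447. Zfp36 stood at 196 to 371 RPKM, Egr1 at 123 to 266, Ier2 at 124 to 237 and Fosb at 91.2 to 273. Each of these ranges overlapped that of its neighbour in the order. Within libraries Junb was above Jun in 10 of 10 and Zfp36 above Egr1 in 10 of 10, whereas Dusp1 was above Zfp36 in 9 and Atf3 above Dusp1 in 8. The order was less even for the other neighbours, with Ier2 above Fosb in 7 libraries, Jun above Fos in 6, Egr1 above Ier2 in 6 and Fos above Atf3 in 5. Fosl1 alone stood apart, at 11.5 to 57.1 RPKM and at ranks 722 to 4055. The other 9 genes ranked 426 or better in every library. The smallest count behind any of these values was 451 reads, for Fosl1 in knockout olive oil/acetone replicate 3, with an exact Poisson 95% interval of 410 to 495 reads that covers counting error only.

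Among the Fos family, Fos encodes the founding AP-1 subunit that pairs with Jun proteins. Its normalised read counts were 14986, 21382 and 16725 in knockout olive oil/acetone libraries and 15692 and 17876 in knockout water libraries. In controls they were 17426, 19824 and 32235 with olive oil/acetone and 20376 and 25517 with water. The groups overlapped with treatment in both genotypes, and the highest value of all belonged to control olive oil/acetone replicate 3. Fosb, a close relative of Fos, had 12582, 13489.6 and 9127 in knockout olive oil/acetone libraries and 17971 and 20894 in knockout water libraries. In controls Fosb had 16246, 16898 and 31238 with olive oil/acetone and 20748 and 19083 with water. All 3 knockout olive oil/acetone libraries lay below every other library for Fosb.

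Fosl1 encodes Fra-1, an AP-1 subunit that lacks the transactivation domain of Fos and is itself a late target of AP-1. It had normalised read counts of 894, 414 and 421 in knockout olive oil/acetone libraries and 2211 and 2145 in knockout water libraries. In controls it had 1278, 1248 and 1146 with olive oil/acetone and 2062 and 662 with water. The knockout groups were far apart, whereas the pair of control water libraries enclosed the 3 control olive oil/acetone libraries.

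Jun and Junb encode the partners of Fos proteins, of which Jun is a strong activator and Junb restrains it in epidermis. Jun had 33514, 22588 and 18375 in knockout olive oil/acetone libraries, against 33420.2 and 34901 in knockout water libraries. In controls Jun had 29121, 29777 and 34459 with olive oil/acetone, against 32173 and 34278 with water. Knockout olive oil/acetone replicates 2 and 3 were below all other libraries, while replicate 1 was among the high ones. Junb had 27329, 24217 and 18108 in knockout olive oil/acetone libraries, against 33189.7 and 33251 in knockout water libraries. In controls Junb had 29359, 25065 and 25824 with olive oil/acetone, against 36419 and 27576 with water. The knockout groups did not overlap for Junb and the control groups did.

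Atf3, a stress-induced factor of the ATF family that can pair with Jun proteins, had 15720.2, 11738 and 7978 in knockout olive oil/acetone libraries and 20023 and 22934 in knockout water libraries. In controls Atf3 had 16359, 14882 and 24538 with olive oil/acetone and 21079 and 18690.1 with water. Its knockout groups did not overlap, and its control groups did. Egr1, a zinc finger factor induced through SRF, had 10383, 14736 and 12974 in knockout olive oil/acetone libraries and 18222 and 15912 in knockout water libraries. In controls Egr1 had 11656, 15418 and 21847 with olive oil/acetone and 13243 and 18371 with water. Control olive oil/acetone libraries thus included the second lowest and the highest Egr1 value of all 10. Ier2, a nuclear protein of the immediate early class, had 4064, 5809 and 3747 in knockout olive oil/acetone libraries and 5206 and 6107 in knockout water libraries. In controls Ier2 had 3725, 4861 and 6609 with olive oil/acetone and 5036 and 4654 with water, and the groups overlapped with treatment in both genotypes.

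The remaining genes encode feedback inhibitors. Dusp1 is the phosphatase that inactivates stress-activated MAP kinases, and it had 20136, 17979 and 13536 in knockout olive oil/acetone libraries and 19067 and 20491 in knockout water libraries. In controls Dusp1 had 21951, 24634 and 27129.5 with olive oil/acetone and 18805 and 21527 with water. The 3 control olive oil/acetone libraries were above all 7 others, which no other gene of the 10 showed. Zfp36 is tristetraprolin, which binds AU-rich elements and hastens decay of cytokine mRNAs and of Fos mRNA. It had 13389, 18858 and 11441 in knockout olive oil/acetone libraries and 16721 and 18311 in knockout water libraries. In controls Zfp36 had 13445, 15032 and 23615 with olive oil/acetone and 16975 and 20821 with water, with overlap between the treatments in both genotypes.

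**Figure D1:**
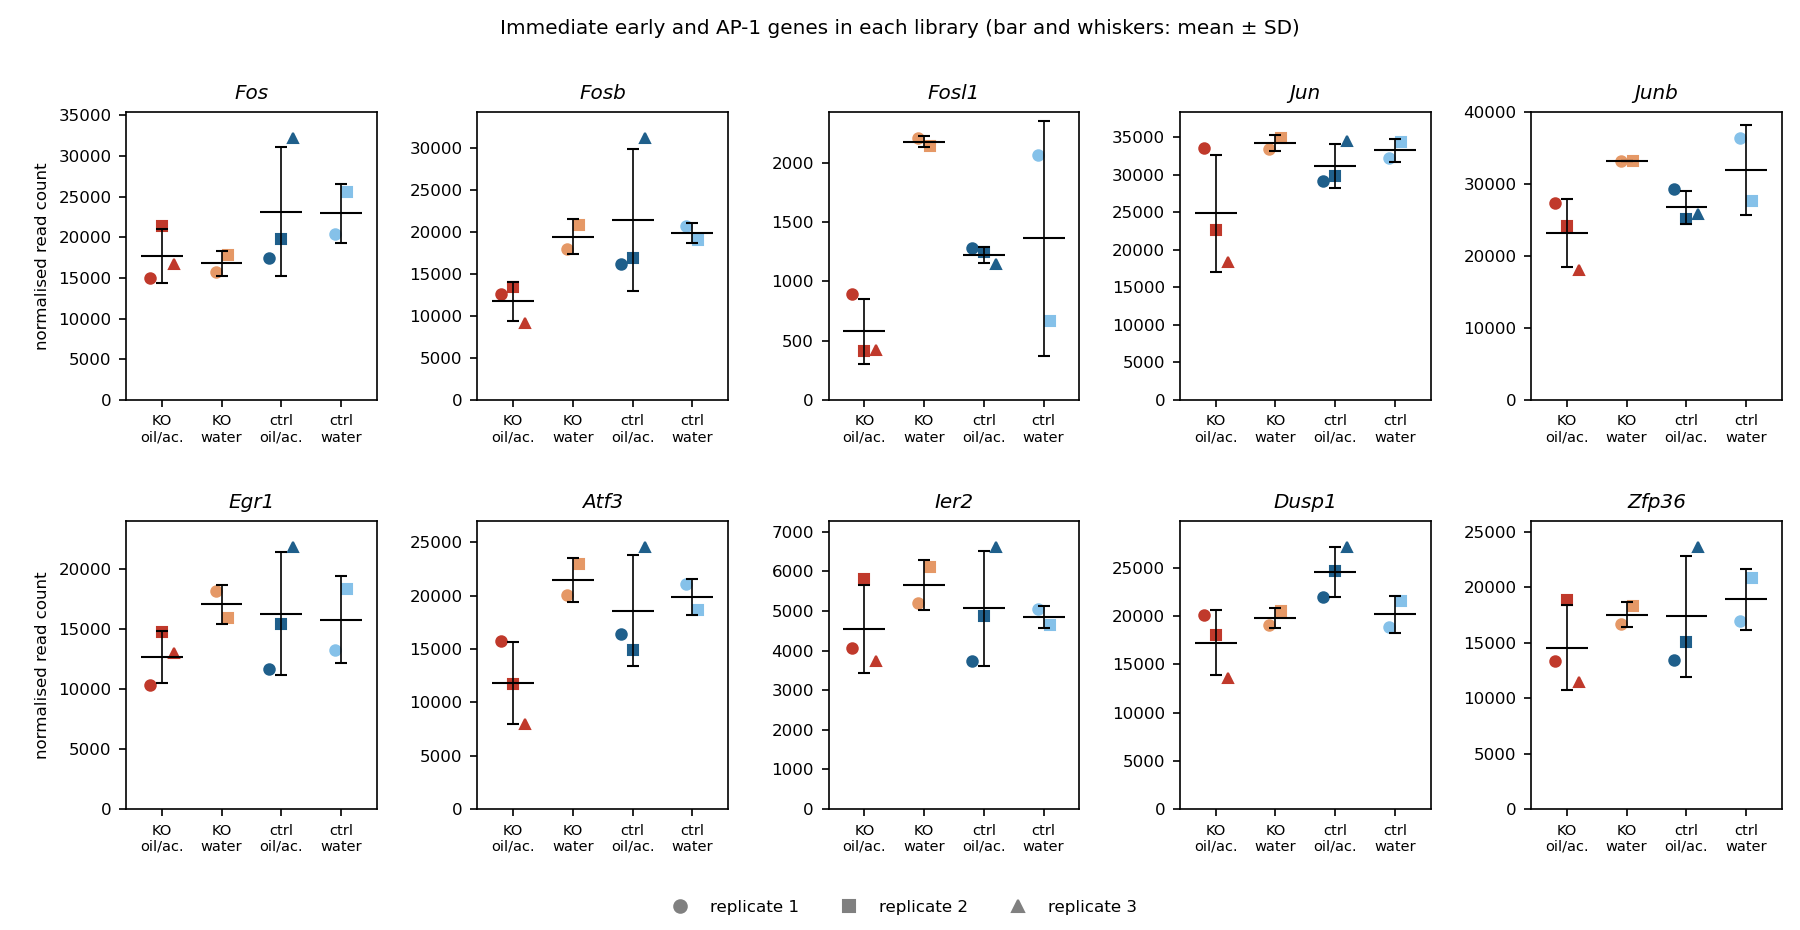
Normalised read count of each of the 10 genes by group, with 1 point per library, the marker shape giving the replicate number within its group; horizontal bars are group means and whiskers ± SD (n = 3 for olive oil/acetone, n = 2 for water). Control olive oil/acetone replicate 3 (triangle) is the highest library of all for Fos, Fosb, Egr1, Atf3, Ier2, Dusp1 and Zfp36, and Fosl1 in knockout skin is the clearest separation between treatments.

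Libraries of the same group differed from each other, and the same libraries stood out for most of the genes. Control olive oil/acetone replicate 3 was the highest of its group for 8 of the 10 genes, all but Fosl1 and Junb. Relative to each gene's own median library it stood 0.45 higher on the log2 scale as the median over the 10 genes. Knockout olive oil/acetone replicate 3 was the lowest of its group for 7 genes and below the median library for all 10, by 0.59 on the log2 scale as the median. Knockout olive oil/acetone replicates 1 and 2 split the list. Replicate 2 was the higher for Fos (by 0.51), Fosb (0.10), Egr1 (0.51), Ier2 (0.52) and Zfp36 (0.49), all as log2 differences of replicate 2 minus replicate 1. Replicate 2 was the lower for Fosl1 (-1.11), Jun (-0.57), Atf3 (-0.42), Junb (-0.17) and Dusp1 (-0.16) on the same scale. Within groups the SD on the log2 scale ran between 0.20 for Dusp1 and 0.60 for Fosl1, with 6 residual degrees of freedom. The median of this SD was 0.33 over the 10 genes and 0.32 over all genes tested. Across all 10 libraries the highest value exceeded the lowest by 1.77-fold for Ier2, by 3.42-fold for Fosb and by 5.34-fold for Fosl1.

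**Figure D2:**
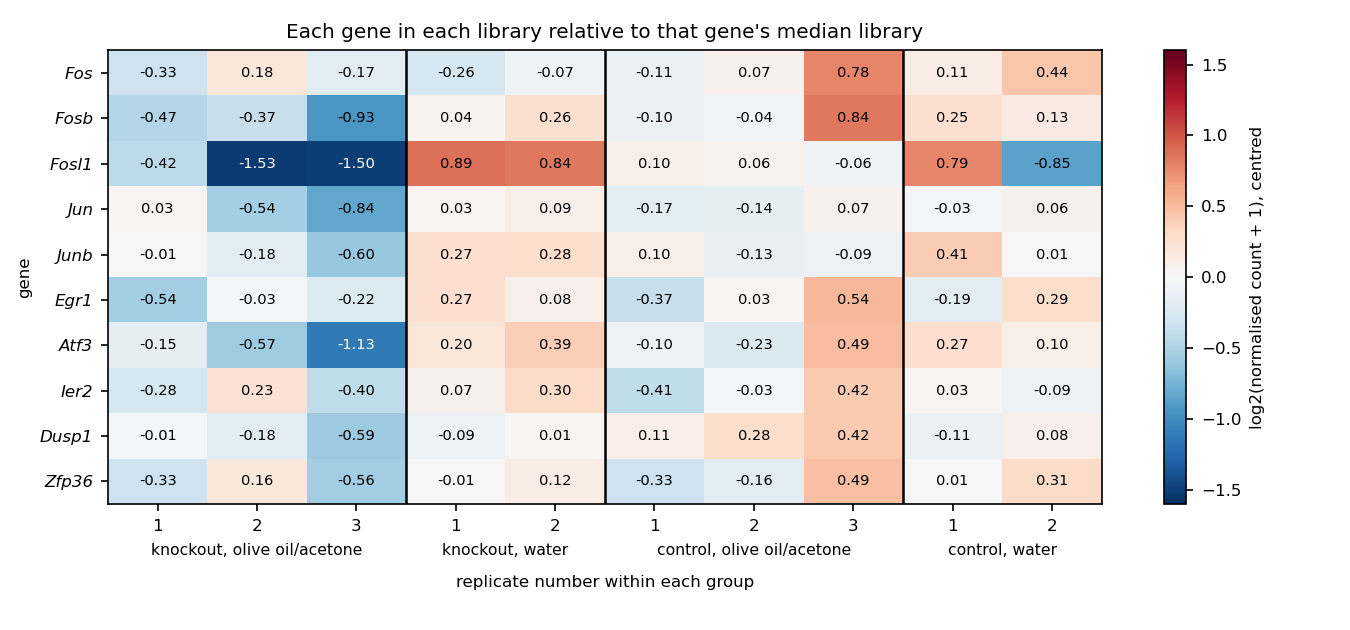
Each gene (rows) in each library (columns, grouped) as log2(normalised count + 1) minus that gene's median over the 10 libraries; red is above the median library and blue is below it. The third knockout olive oil/acetone column is blue for all 10 genes, reaching -1.50 for Fosl1, and the third control olive oil/acetone column is red for 8 of them, reaching 0.84 for Fosb.

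The first comparison set olive oil/acetone against water in knockout skin, where treatment and the presence of Y-linked transcripts differ together. Fosl1 was lower with the mixture, and 8 of the other 9 genes had lower means without passing the test. Fosl1 averaged 577 ± 275 in knockout olive oil/acetone libraries (SD, n = 3) and 2178 ± 46.6 in knockout water libraries (n = 2). Its log2 difference was -2.01 ± 0.43 (SE), with a 95% interval of -2.97 to -1.06 and an adjusted p of 0.0219 by limma, and it was lower in 3 of 3 libraries. Fosl1 was thus 1 gene called of 10, where limma called 13.4% of all genes tested in either direction and 6.69% as lower.

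The other AP-1 subunits and Atf3 came next in size in knockout skin. The log2 difference with olive oil/acetone was -0.91 ± 0.29 (SE) for Atf3, with an adjusted p of 0.0564 by limma. It was -0.74 ± 0.28 for Fosb (adjusted p = 0.0914, limma) and -0.54 ± 0.21 for Junb (adjusted p = 0.0993, limma). The log2 differences of Jun, Egr1, Ier2, Zfp36 and Dusp1 were -0.51, -0.44, -0.34, -0.30 and -0.22, with adjusted p between 0.150 and 0.448 by limma. Fos had a log2 difference of 0.06 with a 95% interval of -0.52 to 0.65. In all, 9 of the 10 genes had a negative difference, where 49.5% of all genes tested did, and the median log2 difference was -0.47 over the 10 genes and 0.01 over all genes tested. The libraries of both groups did not overlap, with olive oil/acetone the lower, for Fosb, Fosl1, Junb, Egr1 and Atf3, 5 of 10 genes, and 29.2% of all genes tested showed such a separation. None of the 10 was separated the other way, as 28.8% of all genes were. The call of Fosl1 was lost when either knockout water library or knockout olive oil/acetone replicate 2 or 3 was left out (adjusted p = 0.0712 to 0.153, limma), while its log2 difference kept between -2.38 and -1.82 with each library left out in turn. In the same fits the calls over all genes were also fewer, at 9 and 35 without knockout water replicate 1 or 2 and at 424 and 239 without knockout olive oil/acetone replicate 2 or 3, against 2142 with all libraries. With knockout olive oil/acetone replicate 1 left out 4 of the 10 genes passed by limma, Fosl1, Jun, Junb and Atf3, where 17.8% of all genes did. With control olive oil/acetone replicate 3 left out 3 passed, Fosb, Fosl1 and Atf3, where 16.1% of all genes did. With all libraries DESeq2 called Fosl1 and Atf3, 2 of the 10, where it called 22.7% of all genes, and a limma fit of the knockout groups alone called Fosb, Fosl1 and Atf3, 3 of the 10, where it called 24.9%.

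In control skin the same comparison gave no call. By limma 0 of the 10 genes passed, where 0.0627% of all genes tested were called. DESeq2 and edgeR on the recovered reads also called 0 of the 10. An unadjusted limma p under 0.05 was found for 0 of the 10 and for 2051 of the 15958 genes tested. The log2 differences lay between -0.25 for Junb and 0.28 for Dusp1, and 5 of 10 were negative, where 49.9% of all genes tested were. The median was -0.01 over the 10 genes. The largest was that of Dusp1, which averaged 24571 ± 2590.0 in control olive oil/acetone libraries (SD, n = 3) and 20166 ± 1925 in control water libraries (n = 2), with a 95% interval of -0.15 to 0.71 for the log2 difference and an adjusted p of 0.564 by limma. Dusp1 was the only gene of the 10 whose olive oil/acetone libraries all lay above the water libraries, a separation that 12.2% of all genes tested showed. No gene of the 10 had all of them below, where 12% of all genes did. The 95% intervals still allowed changes in control skin as large as -0.89 or 1.02 on the log2 scale for Fosl1, and for Fos they ran between -0.61 and 0.55.

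The treatment difference of knockout skin minus that of control skin was tested as an interaction. By limma 0 of the 10 genes and 0% of all genes tested were called for it. Fosl1 had the only unadjusted limma p under 0.05 among the 10, where 1897 of the 15958 genes tested had one. Its interaction was -2.08 ± 0.61 (SE) on the log2 scale, with an adjusted p of 0.356 by limma. DESeq2 called 196 of all genes for the interaction and edgeR 0, with 0 of the 10 among them by either tool. Of the 10 genes 9 had a negative interaction, against 47.9% of all genes tested. Averaged over both genotypes, the treatment difference passed for 0 of the 10 genes by limma. Of all genes tested 12.8% were called, 5.92% as lower and 6.88% as higher. An unadjusted limma p under 0.05 was found for 3 of the 10 and for 5638 of the 15958 genes tested. These 3 were Fosl1 at -0.97 (adjusted p = 0.0576), Junb at -0.39 (0.0915) and Atf3 at -0.52 (0.0983), as averaged log2 differences with adjusted p by limma. Of the 10 genes 8 had a negative average, where 51.8% of all genes tested did. DESeq2 and edgeR called 1 of the 10 for the average, Fosl1, where they called 22.8% and 12.5% of all genes.

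**Figure D3:**
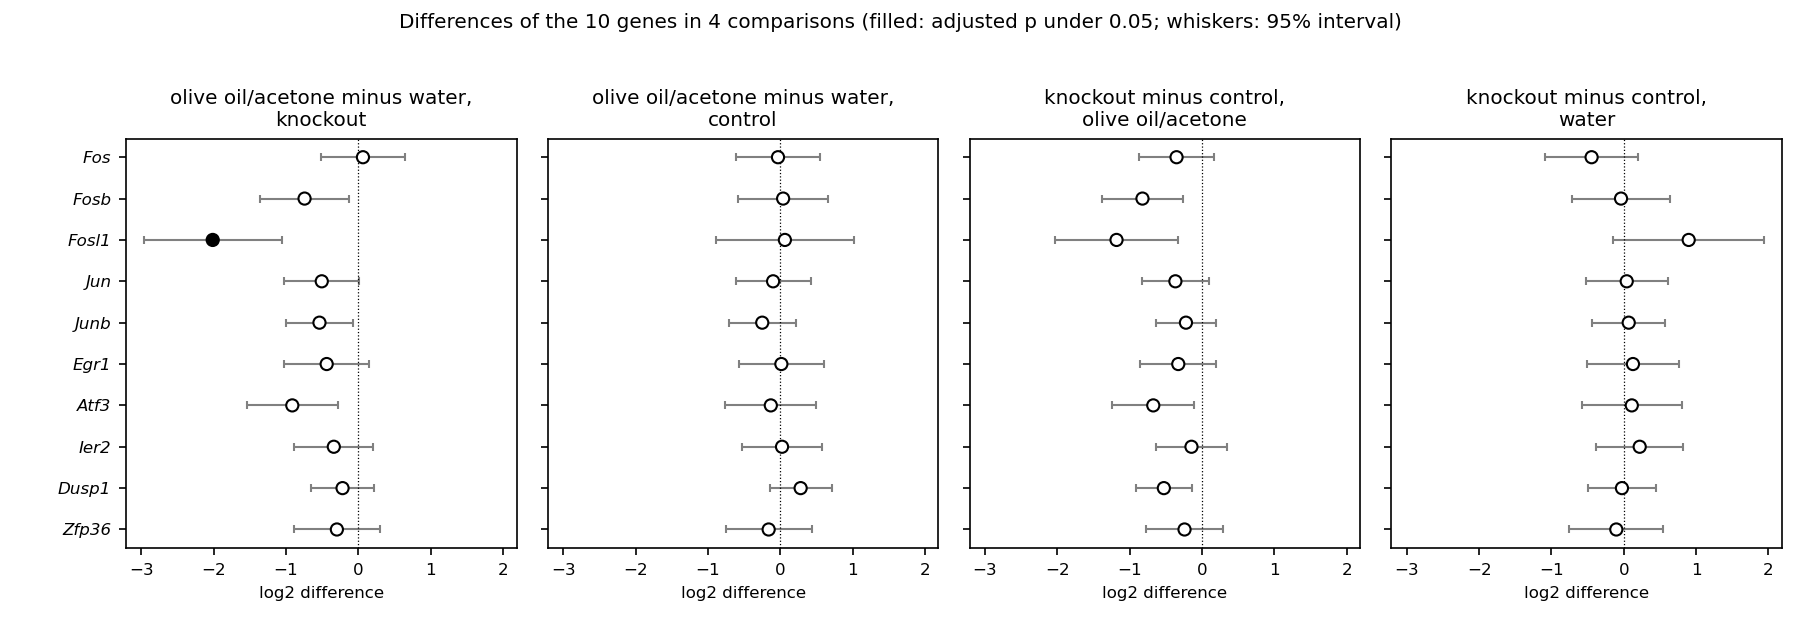
Log2 difference of each of the 10 genes in 4 comparisons (panels), with points for the limma estimate, whiskers for its 95% interval and a filled point where the adjusted p is under 0.05. The only filled point is Fosl1 in the olive oil/acetone minus water comparison of knockout skin, at -2.01, and all 10 estimates are below 0 for knockout minus control under olive oil/acetone.

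Under olive oil/acetone, knockout and control skin were compared directly. All 10 genes had lower means in knockout skin, where 47.9% of all genes tested had a negative difference, and none passed the test. The median log2 difference was -0.36 over the 10 genes and 0.02 over all genes tested. By limma 0 of the 10 and 0% of all genes were called. EdgeR called 0 genes of all, and DESeq2 called 168 with 0 of the 10 among them. An unadjusted limma p under 0.05 was found for 4 of the 10 and for 1908 of the 15958 genes tested. The 4 were Fosl1 with a log2 difference of -1.18 ± 0.39 (SE), Fosb with -0.82 ± 0.25, Atf3 with -0.67 ± 0.26 and Dusp1 with -0.53 ± 0.17, with adjusted p of 0.334, 0.325, 0.372 and 0.335 by limma. The libraries of both genotypes did not overlap, with knockout the lower, for Fosb, Fosl1 and Dusp1, and such a separation was seen for 8.23% of all genes tested. None of the 10 was separated with knockout the higher, as 8.55% of all genes were. The remaining differences were smaller, between -0.37 for Jun and -0.15 for Ier2 on the log2 scale. Both libraries that stood apart above enter here from opposite ends, knockout olive oil/acetone replicate 3 low and control olive oil/acetone replicate 3 high. Without the knockout one the log2 difference was -0.66 for Fosb and -0.42 for Atf3, and without the control one it was -0.51 for Fosb and -0.45 for Atf3. Without the control one Ier2 and Zfp36 also changed sign, to log2 differences of 0.07 and 0.0079.

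Under water none of the 10 genes passed the test between genotypes. Of the 10 genes 4 had a negative difference, where 51% of all genes tested did. By limma 0 of the 10 and 0% of all genes tested were called. Neither edgeR, with 0 genes in all, nor DESeq2, with 6 in all, called any of the 10. An unadjusted limma p under 0.05 was found for 0 of the 10 and for 796 of the 15958 genes tested. Fosl1 had the largest difference, with 2178 ± 46.6 in knockout water libraries and 1362 ± 990 in control water libraries (SD, n = 2 each). Its log2 difference was 0.90 with a 95% interval of -0.15 to 1.94 and an adjusted p of 0.964 by limma. Both knockout libraries lay above both control libraries for Fosl1 and Ier2, as for 16.9% of all genes tested, and below them for Fos, as for 17.8%. Fos had a log2 difference of -0.45, with a 95% interval of -1.08 to 0.19.

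Fosl1 was low in the libraries that held the most transcripts of hair, of Langerhans and dendritic cells and of sebocytes. Of 12 markers of the hair fibre and its inner sheath, 10 were listed in all files, and they summed to 5.90, 59.2 and 20.2 RPKM in knockout olive oil/acetone libraries and to 2.89 and 3.13 in knockout water libraries. In controls they summed to 4.14, 2.33 and 2.95 with olive oil/acetone and to 1.77 and 272 with water. The 3 libraries above 20 on this scale, knockout olive oil/acetone replicates 2 and 3 and control water replicate 2, were the 3 with the lowest Fosl1, at 414, 421 and 662 normalised reads. Of these markers Padi3 was at 0 in 4 libraries, Krt73 in 2 and Krt71 in 1, none of them among those 3. The same 3 libraries had the highest sums of 10 Langerhans and dendritic cell markers, at 1131, 841 and 1377 RPKM in the same order, against 356 to 696 in the other 7. They also had the highest sums of 10 sebocyte markers, at 295, 172 and 176 RPKM, against 81.7 to 148 in the other 7. No marker of either list was at 0 in any library. Knockout olive oil/acetone replicate 1, whose hair transcripts summed to 5.90, had the next lowest Fosl1 at 894. These are bulk samples, so fewer cells of a type and less RNA per cell cannot be told apart. These 3 marker lists are given after their values were seen, and other lists ordered the libraries differently. The T cell markers summed highest in control water replicate 1, at 844 RPKM, where Fosl1 had 2062 normalised reads. Macrophage and neutrophil markers summed highest in knockout olive oil/acetone replicate 2, at 153.5 RPKM, followed by control olive oil/acetone replicate 3, at 80.9. Control water replicate 2 and knockout olive oil/acetone replicate 3 came after these, at 67.0 and 53.5, so this list followed the Fosl1 order in part. The part of hair, Langerhans or sebocyte transcripts in the Fosl1 result was not tested.

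**Figure D4:**
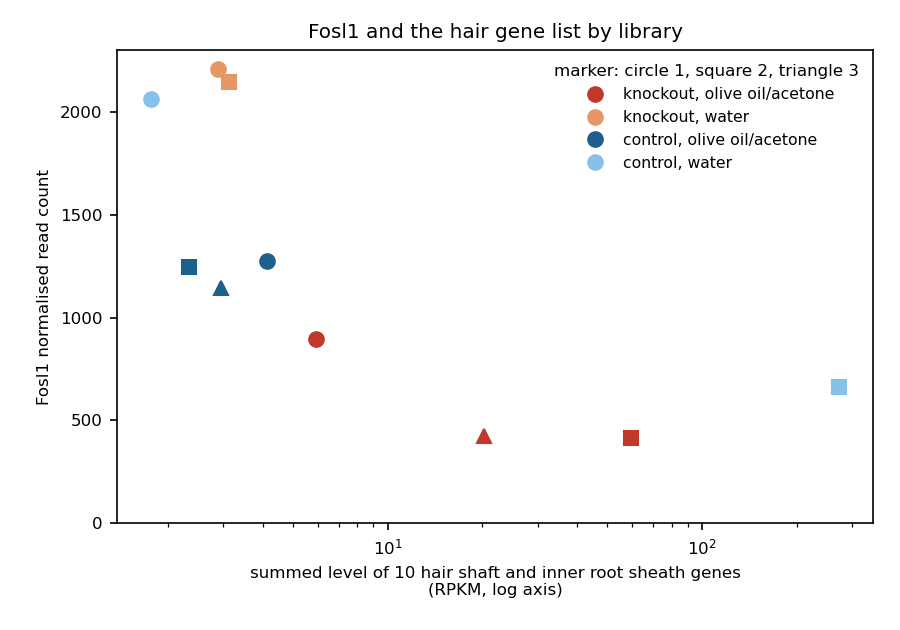
Normalised read count of Fosl1 against the summed level of the 10 hair genes listed in all files (RPKM, log axis), with 1 point per library, coloured by group and shaped by replicate number. The 3 libraries at the right, with sums between 20.2 and 272, have the lowest Fosl1, between 414 and 662, and they also had the highest sums of Langerhans and sebocyte markers, which are not plotted.

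Markers of other cell types also differed with the treatment in knockout skin. The 5 red blood cell markers summed to 962 to 1957 RPKM in knockout olive oil/acetone libraries and to 77.3 to 168 in knockout water libraries, against 309 to 921 and 222 to 466 in control olive oil/acetone and control water libraries. Limma called all 5 as higher in knockout skin with the mixture. The 10 macrophage and neutrophil markers listed in all files summed to 48.1 to 153.5 in knockout olive oil/acetone libraries and to 10.8 to 11.4 in knockout water libraries, with 4 called as higher, Mrc1, C1qa, C1qb and C1qc. Of these 10, Cxcr2 was at 0 in control water replicate 1. The 8 endothelial markers summed to 5.87 to 7.77 in knockout olive oil/acetone libraries and to 1.46 to 3.34 in knockout water libraries, with 2 called as higher, Pecam1 and Vwf, and with Cdh5, Cldn5 and Emcn each at 0 in a knockout water library. The 12 T cell markers gave sums of 304 to 558 and of 391.5 to 418 in the same groups, with 0 called by limma. Of the 12 keratinocyte markers, whose sums were higher with the mixture as given above, limma called Krt1 as higher and Krt15 and Trp63 as lower in knockout skin. There 8 of the 12 had a negative log2 difference, with a median of -0.26, where 49.5% of all genes tested were negative. The sums weigh the most abundant markers most, so a higher sum does not mean that most of the markers were higher. The part of these cells in the values of the 10 genes was not tested.

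Fosl1 also shares 1163 exon bases with Ccdc85b on the opposite strand, and whether the authors' counting used strand is not given in the sources used here. Ccdc85b had 948, 806 and 663 normalised reads in knockout olive oil/acetone libraries and 1289.6 and 1493 in knockout water libraries, with a log2 difference of -0.80 ± 0.23 (SE) and an adjusted p of 0.0477 by limma. The reads of both genes cannot be told apart over the shared bases. The RPKM and rank of Fosl1 given above used all 2033 of its exon bases, so this limit holds for them too. Jun, Junb, Dusp1 and Zfp36 overlap a gene on the opposite strand by 232, 173, 11 and 125 exon bases, and of these partners Prdx2, beside Junb, averaged 3421 normalised reads and Ergic1, beside Dusp1, 1112. Junos, beside Jun, averaged 22.5 and Gm44710, beside Zfp36, averaged 5.89.

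Further genes of the pathway were counted by list in the same limma fit. None of the 9 lists held a called gene in control skin, in either genotype comparison or in the interaction. Over all genes tested 0.0627% were called in control skin and 0% in those other comparisons. In knockout skin 6.74% of all genes tested were called higher and 6.69% lower, and these shares stand beside each list count below. Several genes called in knockout skin had a difference of the same sign in control skin that did not pass the test, and 5 are given after their values were seen. The log2 differences in control skin were 1.58 for Arc, -1.81 for Nfkbie, 1.65 for Aldh1l2, 0.86 for Phgdh and 1.44 for Sprr1b, with adjusted p between 0.143 and 0.215 by limma. The interaction of these 5 genes lay between -0.22 and 0.78 on the log2 scale and was not called. In knockout skin with olive oil/acetone, the remaining AP-1 genes and their leucine zipper partners had 1 gene higher and 2 lower of 12 tested. Mafk, a small Maf protein, averaged 2916 ± 901 in knockout olive oil/acetone libraries (SD, n = 3) and 6895 ± 157 in knockout water libraries (n = 2), and its log2 difference was -1.28 ± 0.26 (SE, adjusted p = 0.0180, limma). Maff also fell, and Maf rose with a log2 difference of 0.61 (adjusted p = 0.0498, limma). Jund, the AP-1 subunit known for steady expression and the highest of this list per length, averaged 5202 ± 1401 and 5236 ± 695 in the same groups, and Fosl2 averaged 7405 ± 881 and 11858 ± 1029 without passing the test.

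Of 40 other immediate early genes, 1 was called higher and 5 lower in knockout skin with olive oil/acetone. In this list 30 had a negative log2 difference, where 49.5% of all genes tested did, with a median of -0.49. The 5 called lower were Ccn1, Mcl1, Csrnp1, Id1 and Myc. Ccn1, a matrix protein gene that responds to stretch through YAP and SRF, averaged 7414 ± 4614 in knockout olive oil/acetone libraries (SD, n = 3) and 17026 ± 3856 in knockout water libraries (n = 2), with a log2 difference of -1.35 ± 0.39 (SE, adjusted p = 0.0455, limma). Mcl1, a survival factor of the Bcl family, averaged 5019.6 ± 872 and 8046 ± 257 in the same groups (adjusted p = 0.0337, limma). Arc rose, at 3231 ± 1409 and 972 ± 113, with a log2 difference of 1.65 ± 0.39 (SE, adjusted p = 0.0276, limma), the opposite sign to the genes just named. Ier3 and Klf4, which with Ccn1 were the highest of this list per length, had log2 differences of -0.37 and 0.10 and did not pass. Averaged over both genotypes the list had 1 gene higher and 7 lower, beside 6.88% and 5.92% of all genes tested. Nfil3, a leucine zipper repressor, had the lowest adjusted p of the 7 at 0.0186 by limma, with a log2 difference of -0.96.

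The inhibitors that these pathways induce were next. All 14 MAP kinase feedback inhibitors tested had a negative log2 difference in knockout skin with olive oil/acetone, where 49.5% of all genes tested did. Their median was -0.62, and 2 of the 14 were called lower, beside 6.69% of all genes tested. Spry1, which blocks receptor tyrosine kinase signalling, averaged 644 ± 177 in knockout olive oil/acetone libraries (SD, n = 3) and 1521 ± 19.2 in knockout water libraries (n = 2), and its log2 difference was -1.28 ± 0.23 (SE, adjusted p = 0.0151, limma). Dusp8 was the other. The most abundant of the list per length, Dusp7, Dusp5 and Dusp6, had log2 differences of -0.62, -0.90 and -0.46 and did not pass. In control skin 11 of the 14 also had a negative log2 difference, where 49.9% of all genes tested did. Their median was -0.49 in control skin, and limma called 0 of them. There Dusp5 had a log2 difference of -0.62, Spry1 one of -0.01 and Dusp7 one of 0.34. Among 13 genes of mRNA decay and NF-kB feedback, 0 rose and 3 fell in knockout skin, Nfkbie, Tnfaip3 and Zfp36l1. Nfkbie, an inhibitor of NF-kB, averaged 372 ± 126 and 1474 ± 207, with a log2 difference of -2.03 ± 0.49 (SE, adjusted p = 0.0302, limma). Nfkbia, Zfp36l2 and Nfkbiz, the highest of that list per length, had log2 differences of -0.43, -0.42 and -0.55 and did not pass. Of 15 cytokine mRNAs with AU-rich elements, which Zfp36 can act on, 0 were called in knockout skin. Ccl20 averaged 1625 ± 1400.2 in knockout olive oil/acetone libraries and 1425 ± 520 in knockout water libraries, Vegfa 2496 ± 1120.5 and 3108 ± 165, and Ccl2 730 ± 305 and 233 ± 91.3 in the same groups.

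Heat shock genes are the other programme known to follow warm digestion. The highest of this list per length were Hspb1, a small chaperone that averaged 1444 RPKM over the 10 libraries, and Hspa1b, an inducible chaperone that averaged 807, whereas Hsf2, a heat shock factor, averaged 7.81. In knockout skin with olive oil/acetone 0 of 21 heat shock genes were called higher and 5 lower, beside 6.74% and 6.69% of all genes tested. The 5 were Hspb1, Hsp90aa1, Hspb8, Dnajb4 and Hsf2. Hspb1 averaged 21300.5 ± 5582 normalised reads in knockout olive oil/acetone libraries (SD, n = 3) and 40089 ± 2132 in knockout water libraries (n = 2), with a log2 difference of -0.94 ± 0.21 (SE, adjusted p = 0.0258, limma). Hsp90aa1 averaged 8702 ± 263 and 17939.8 ± 2307, with a log2 difference of -1.04 ± 0.20 (SE, adjusted p = 0.0172, limma). Hspa1b had a log2 difference of -0.68 and Hsp90ab1, the constitutive partner of Hsp90aa1, one of 0.32, and neither passed. In control skin the log2 differences of Hspb1 and Hsp90aa1 were -0.44 and -0.20, neither of them called.

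The integrated stress response, which runs through Atf4, moved both ways in knockout skin with olive oil/acetone, with 4 genes higher and 3 lower of 25. Sesn2, a sensor of amino acid and oxidative stress, fell, with 1316 ± 337 in knockout olive oil/acetone libraries (SD, n = 3) and 3662 ± 25.9 in knockout water libraries (n = 2), an adjusted p of 0.0212 by limma and a log2 difference of -1.51. Gadd45b and Slc3a2 fell too. Aldh1l2, a mitochondrial folate enzyme, rose, with 64.4 ± 13.5 and 12.1 ± 0.128 in the same groups (adjusted p = 0.0147, limma). Phgdh, the first enzyme of serine synthesis, rose with a log2 difference of 0.99 (adjusted p = 0.0165, limma), as did Atf5 and Slc7a11. Atf4 itself and the chaperone gene Hspa5 had log2 differences of -0.62 and -0.41 in knockout skin, with adjusted p of 0.0502 and 0.150 by limma.

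Of 22 MAP kinase and SRF pathway genes, 1 rose and 1 fell in knockout skin with olive oil/acetone. Egfr, the receptor upstream of this pathway in keratinocytes, averaged 2847 ± 836 in knockout olive oil/acetone libraries (SD, n = 3) and 5066 ± 718 in knockout water libraries (n = 2), with a log2 difference of -0.86 ± 0.25 (SE, adjusted p = 0.0469, limma). Map2k2, a kinase of the MAP kinase cascade, rose with a log2 difference of 0.50 (adjusted p = 0.0477, limma). Mapkapk2 and Mapk3 had log2 differences of -0.19 and 0.33 and did not pass. Averaged over both genotypes 1 of the 22 was called higher, Map2k2, and 1 lower, Crem, beside 6.88% and 5.92% of all genes tested. Crem had an averaged log2 difference of -2.01 (adjusted p = 0.0283, limma). In knockout skin the 17 AP-1 targets came next. Among 17 known AP-1 target genes 2 were called higher, Sprr1b and Plau, and 0 lower. In this list 9 of the 17 had a negative log2 difference, where 49.5% of all genes tested did, with a median of -0.26. Sprr1b, a cornified envelope precursor, averaged 5819 ± 2482 in knockout olive oil/acetone libraries and 1208 ± 442 in knockout water libraries, with a log2 difference of 2.23 ± 0.35 (SE, adjusted p = 0.0105, limma), the opposite direction to Fosl1. Sprr1a and Lor, also envelope precursors and with Sprr1b the highest of the list per length, had log2 differences of -0.28 and 1.55 and did not pass. Averaged over both genotypes 3 of the 17 were called higher, Sprr1b, Plau and Lor, and 2 lower, Mmp3 and Mmp9. Beside them stand 6.88% and 5.92% of all genes tested. Mmp3 had an averaged log2 difference of -0.82 (adjusted p = 0.0368, limma). Of the 179 genes tested in the 9 lists, 9 (5.03%) were called higher and 21 (11.7%) lower in knockout skin, beside 6.74% of all genes tested called higher and 6.69% called lower.

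The genes whose profile over the 10 libraries was most like the median profile of the 10 immediate early and AP-1 genes were Acpp, Cyp2j6, Aldh6a1, Gm26532 and Rasa3. They were taken from 10300 genes outside all lists with a mean normalised count of 100 or more, by the root mean square distance between centred log2 profiles. Their distances were 0.12, 0.12, 0.14, 0.14 and 0.15 on the log2 scale, where a flat profile lay 0.27 away. On the same measure the nearest of the 10 genes to their own median profile was Zfp36, at 0.16, and the farthest was Fosl1, at 0.74, beyond a flat profile.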

How the data were processed

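The deposited values were signal values, normalised read counts per gene that the authors made by counting reads and dividing them by a factor per library. The submitters' processing notes name GRCm38 and list DESeq2 1.26.0, featureCounts 2.0.0 and Trimmomatic 0.38 as tools. For the aligner, the annotation and strandedness, the settings were not given in the sources used here. Each file held whole multiples of 1 step, and dividing by it gave whole reads for 100% of values within 0.1 reads. Those reads gave the depths and RPKM and were tested with edgeR 4.0.16 and DESeq2 1.42.0 as alternatives. All 17983 gene IDs matched GENCODE vM21, of which 15987 were in all 10 files.

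The files were scaled to each other by the median of ratios (factors 1.00 to 1.01). Of these genes, 15958 reached a value of 10 in 2 libraries or more and were tested. In R 4.3.3, limma 3.58.1 was fitted to log2(value + 1) with a mean per group over all 10 libraries and a trended prior, two-sided, with Benjamini-Hochberg adjustment over all genes tested and a threshold of 0.05. Fold changes are on that log2 scale. The scripts were tested on simulated data. The 10 genes and the gene lists were chosen with earlier results of these data known. In each list the 3 genes highest per length were named, except 1 that is not reported here, with the called gene of lowest adjusted p in each direction for each comparison, and the other called genes of knockout skin were named after their values were seen. Values per gene are normalised read counts after this scaling, and comparisons between genes use RPKM. Replicate numbers were not taken to pair the libraries and entered no main fit.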

Additional observations from a re-analysis of the deposited data

How the results depend on the processing

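Of 440 values of the 10 genes under settings that kept all libraries, 420 kept both direction and side of the threshold, 7 newly passed it, 0 lost it and 13 changed sign, none of the 13 called. With 1 library left out, 546 of 600 values kept both, 4 lost a call, 12 newly passed and 38 changed sign. For olive oil/acetone against water in knockout skin, where limma called 1 of the 10 genes, DESeq2 called 2 (22.7% of all genes). A fit of those groups only called 3 (24.9% of all genes), as did the same fit on genes listed in both groups, an alternative chosen after seeing the data. With 1 library left out the count ran between 0 and 4. For the treatment averaged over genotypes, where limma called 0, DESeq2 and edgeR each called 1, and the count with 1 library left out ran between 0 and 4. For the interaction it ran between 0 and 1, the 1 being Fosl1 without control water replicate 1, where 74 of all genes were called. Where a group was left with 1 library, that library was taken to vary like the others. The cause of these shifts was not tested. Companion lists were counted in the limma fit only.

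Sign changes were confined to differences that were not called. In control skin the treatment difference of Fos was 0.013 with DESeq2 and 0.0072 with edgeR, and that of Fosl1 -0.15 with either. With equal library totals in place of the median of ratios, the treatment difference in control skin was -0.0211 for Egr1 and -0.0118 for Ier2, the genotype difference under water was -0.0265 for Jun, and the interaction was 0.0230 for Zfp36. Equal totals moved the median of all genes in knockout skin to 0.13 and its calls to 1346 higher and 845 lower, against 1075 and 1067. Same-numbered knockout and control olive oil/acetone libraries correlated at 0.308, -0.105 and 0.131 in their deviations from group means. Over all groups, same-numbered libraries correlated between -0.105 and 0.451, and differently numbered ones between -0.451 and 0.348. In a group of 2 libraries the deviations mirror each other, so such correlations come with both signs. These values do not settle whether the replicate numbers pair the libraries. With the number as a replicate block, limma still called 1 of the 10 genes in knockout skin and 0 in the other comparisons. The block gave -0.0528 for Fos in knockout skin, -0.0261, -0.113 and -0.0178 for Fosb, Egr1 and Ier2 in control skin, and -0.10 for Fos averaged over genotypes.

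With 1 library left out, the treatment difference of Fos in knockout skin ran between -0.0808 and 0.17. In control skin the treatment differences ran between -0.30 and 0.15 for Fos, -0.27 and 0.20 for Fosb, -0.75 and 0.88 for Fosl1, and -0.22 and 0.26 for Egr1. They ran between -0.35 and 0.0144 for Atf3, -0.19 and 0.22 for Ier2, and -0.41 and 0.00054 for Zfp36. Averaged over genotypes the ranges were -0.12 to 0.10 for Fos and -0.0305 to 0.11 for Dusp1. For the genotype difference under olive oil/acetone they were -0.35 to 0.0717 for Ier2 and -0.45 to 0.0079 for Zfp36. Under water they were -0.15 to 0.0709 for Fosb, -0.0114 to 0.0834 for Jun, -0.14 to 0.26 for Junb and -0.12 to 0.36 for Egr1. They were -0.13 to 0.0692 for Dusp1 and -0.26 to 0.0411 for Zfp36. For the interaction they were -0.0848 to 0.36 for Fos and -0.34 to 0.11 for Zfp36.

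Over all genes, calls for the treatment were 3625 with DESeq2 and 1927 with edgeR against 2142 with limma in knockout skin, and 362 and 7 against 10 in control skin. A fit of the groups compared gave 3892 in knockout skin, and the block gave 2766 in knockout skin and 58 in control skin. DESeq2 called 3649 for the averaged treatment against 2043 with limma, and 168, 6 and 196 for the genotype under olive oil/acetone, under water and the interaction against 0 with limma. With 1 library left out, limma's calls over all genes ran between 9 (without knockout water replicate 1) and 3142 (without control water replicate 1) in knockout skin. They ran between 6 (without control olive oil/acetone replicate 2) and 470 (without its replicate 1) in control skin, and between 164 and 4159 (the same libraries as 9 and 470) averaged over genotypes. They were at most 51, 1 and 74 for the genotype under olive oil/acetone, under water and the interaction. The 13.4% of genes called in knockout skin is therefore a share of the fit with all libraries, and it did not hold without either knockout water library. Calls were also fewer without knockout olive oil/acetone replicate 2 (424) or 3 (239) or control olive oil/acetone replicate 2 (839). They were 2566 to 2846 without any other olive oil/acetone library. For the 10 genes, whose lowest count was 451 reads, counting error was small beside the spread between libraries, and the 2 or 3 libraries per group set the precision. Counting error was not computed for other genes, some of which had low counts.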
